A study of Mus musculus with 49 samples.

Results

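The genes described here are those that were lower in mutant than in wild-type (WT) naive CD4 T cells in both of the naive sets of a mouse study of Elf4. A gene was taken when the mean of its mutant libraries was at most 0.75 times the mean of its WT libraries, and its WT mean was at least 3 CPM (read counts scaled to library size), in each set. Symbols starting with Ifit, Oas or Slfn were left out, which removed 2 genes. The rule found 114 genes among the 9705 genes that reached 3 CPM in the WT libraries of both sets. The genes were thus chosen by their naive RNA levels in these 13 libraries, so those values are given as a description, without a test. Tests are given for Th17 cells, macrophages and chromatin accessibility, none of which entered the rule.

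All 49 libraries came from C57BL/6 mice. The first naive set had 3 WT libraries and 4 libraries labelled Elf4 KO, and the second had 3 WT and 3 Elf4 W250S libraries (a tryptophan-to-serine change in ELF4). Th17 cells were WT or W250S, 3 libraries each, taken 48 h into a pathogenic culture (IL-6, IL-23 and IL-1b) or a non-pathogenic one (TGF-beta and IL-6). Bone marrow-derived macrophages (BMDM) were grown for 7 days with M-CSF and were WT or Elf4 KO, 3 libraries each, at 0 h without stimulus and at 4 h and 16 h of LPS at 100 ng/ml. ATAC-seq, which reads open chromatin, was made from untreated naive CD4 T cells of 3 WT and 3 libraries labelled Elf4 KO. The labels name the libraries as separate samples but do not say how animals were assigned to all of them, so a p-value measures the spread between these libraries.

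ELF4 is a transcription factor of the ETS family, whose members bind DNA around a GGAA core. In T cells it is known for restraint of proliferation and for expression of homing receptors, and in macrophages for regulation of innate cytokine and interferon genes. Loss of its function in people causes an inflammatory disease of mucosal surfaces.

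Elf4 RNA did not separate the groups of the first naive set. It was 185.5, 195.1 and 191.7 CPM in the WT libraries and 208.5, 180.4, 178.1 and 189.9 CPM in the libraries labelled KO, so the values overlapped. They are called KO-labelled below. Where the deleted stretch of the gene lies is not given in the sources used here, and whether the label holds was not tested. In macrophages the same total over the gene was lower in KO at each time. At 0 h it was 21.4, 19.1 and 25.5 CPM against 96.4, 107.9 and 111.8 CPM (log2 difference -2.22, SE 0.11, limma adjusted p = 2.21e-09). For W250S every mutant library was above every WT library in Elf4 RNA, in naive cells (250.5 to 277.6 against 224.2 to 249.7 CPM) and in both Th17 cultures. The Th17 values were 85.41 to 87.92 against 79.45 to 81.76 CPM (pathogenic) and 91.87 to 102.4 against 80.45 to 88.33 CPM (non-pathogenic). Neither Th17 difference passed by limma (log2 difference 0.09 with adjusted p = 0.347 and 0.17 with adjusted p = 0.114).

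In naive cells the rule alone was met by 268 genes in the KO-labelled set (2.76% of 9705) and by 167 genes in the W250S set (1.72%). The 114 genes that met it in both (1.17%) were 42.5% of the first list and 68.3% of the second. Their median ratio was 0.64 in the KO-labelled set, where the median of all 9705 genes was 0.993, and 0.674 in the W250S set, where it was 1.05. Every mutant library was below every WT library for 101 of the 114 in the KO-labelled set (11.6% of all genes) and for 99 in the W250S set (4.83%), and 91 did so in both. The ratio was at most 0.5 in both sets for 12 genes: Gpr34, Ncf4, Cd1d1, Hsd17b11, Pqlc3, Prr13, Pctp, Zfp995, B3gnt5, Mapk11, Rab20 and 1 pseudogene. Of the 114, 16 carry predicted or numbered model names.

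**Figure D1:**
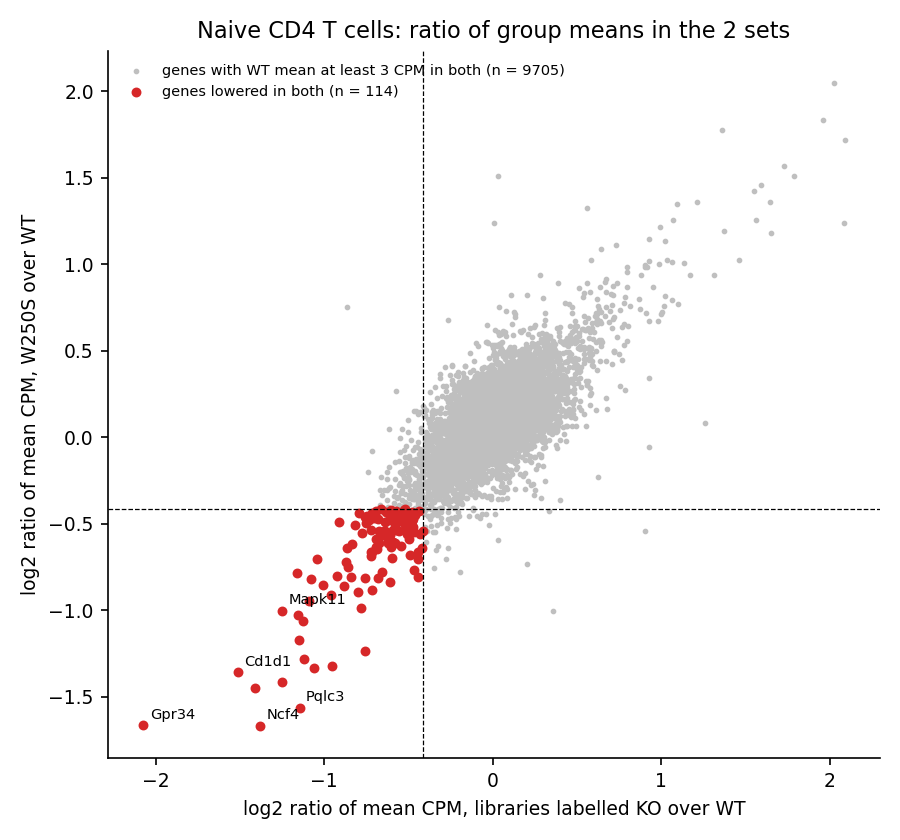
Each point is a gene with a WT mean of at least 3 CPM in both naive sets (9705 genes), placed by the log2 ratio of group means of KO-labelled over WT libraries (x axis) and of W250S over WT libraries (y axis). Dashed lines mark a ratio of 0.75, the 114 genes below both are red by construction, and Gpr34, Ncf4, Cd1d1 and Pqlc3 lie among the lowest in both directions.

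Cd1d1 encodes the molecule that presents lipid antigens to NKT cells. It stood at 18.2, 18.4 and 15.8 CPM in WT and 6.29, 5.52, 5.598 and 7.08 CPM in KO-labelled libraries, and at 9.70, 12.6 and 12.7 CPM in WT and 4.81, 4.07 and 4.74 CPM in W250S libraries. The groups were apart in both sets, with ratios of 0.350 and 0.390. In GRCm38 coordinates the protein-coding Cd1d1 gene spans chr3:86995834-87012358. Its near-copy Cd1d2, whose reads could be split from it in either direction, was under 0.5 CPM in every group mean. B2m, the light chain that pairs with CD1d, had means of 447 CPM in WT and 495 CPM in KO-labelled cells.

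Hsd17b11 (chr5:103989765-104021796) encodes a short-chain dehydrogenase found on lipid droplets. It was 7.57, 7.27 and 8.47 CPM in WT against 2.95, 2.30, 3.49 and 2.94 CPM in KO-labelled cells, and 13.0, 12.6 and 14.9 CPM against 4.94, 4.65 and 5.27 CPM in the W250S set. All mutant values lay under all WT values, at ratios of 0.376 and 0.367. Other HSD17B genes that were followed moved less in means, and both ways. In KO-labelled against WT cells Hsd17b12 was at 12.1 against 14.7 CPM. Hsd17b4 was at 4.13 against 3.22, Hsd17b7 at 6.23 against 5.92 and Hsd17b10 at 14.1 against 12.8 CPM. In W250S against WT cells Hsd17b12 was at 17.3 against 18.7 CPM. There Hsd17b4 was at 5.11 against 4.63, Hsd17b7 at 7.89 against 7.23 and Hsd17b10 at 13.0 against 12.2 CPM.

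Ncf4 (chr15:78244164-78262582) encodes p40phox, a cytosolic subunit of the phagocyte NADPH oxidase. It was 7.09, 9.30 and 6.70 CPM in WT and 3.27, 2.59, 3.20 and 2.77 CPM in KO-labelled libraries. In the W250S set it was 4.94, 5.98 and 5.91 CPM in WT and 1.22, 1.93 and 2.16 CPM in mutant libraries, again without overlap. The membrane subunit Cybb was near 0 in naive cells, with group means from 0.0235 to 0.0636 CPM. Ncf1, another cytosolic subunit, had higher means in mutants, 2.63 against 1.29 CPM and 2.11 against 1.26 CPM.

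Prr13 (chr15:102459170-102462806), which encodes a proline-rich protein, was 12.2, 11.9 and 11.6 CPM in WT and 5.06, 5.26, 4.47 and 5.27 CPM in KO-labelled libraries. It was 16.2, 16.2 and 17.6 CPM in WT and 6.21, 6.67 and 5.89 CPM in W250S libraries. Its ratios of 0.420 and 0.375 came with small spread within each group. Gpr34, a receptor for lysophosphatidylserine on the X chromosome (chrX:13622650-13640859), had the lowest ratio of the 114 in the KO-labelled set, 0.238, from low levels: 3.43 to 6.43 CPM in WT and 0.622 to 2.11 CPM in KO-labelled libraries.

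At the edge of the rule, Ak3, Ptger4 and Trim35 were the last genes inside, the larger of their ratios being 0.7493, 0.7487 and 0.7485. Stambp, Ctss and Oxsm were the first outside, at 0.751, 0.7521 and 0.7528. Ctss, which encodes cathepsin S of antigen processing, had ratios of 0.7521 and 0.6907. With a ratio of 0.7 the rule gave 61 genes, and 54 of the 114 were kept whichever single naive library was left out.

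The naive libraries held T cells by their markers: Cd4 was between 423 and 688 CPM, and Cd8a was at or under 0.448 CPM. The 17 B cell markers, of which 13 are in each naive table, summed to 161 to 200 CPM in KO-labelled and 186 to 191 CPM in WT libraries, and 226 to 250 against 249 to 262 CPM in the W250S set, nearly all from Ighm. Cd79a was at most 0.693 CPM, and Cd22 and Blnk, which have no row in either table, were not analysed here. The myeloid and dendritic markers, of which 9 of 14 have a row in the KO-labelled set and 7 of 14 in the W250S set, summed to 7.62 to 12.9 CPM in KO-labelled and 8.17 to 9.48 CPM in WT libraries, and 7.96 to 9.85 against 7.82 to 8.95 CPM in the W250S set. Itgax was under 0.1 CPM in each library, and Cd14, Flt3, Siglech, Spi1 and Tyrobp have no row and were not analysed here. The gamma-delta and NKT markers with a row, 3 of 6 and 2 of 6, summed lower in mutants, 3.35 to 4.06 against 4.16 to 5.41 CPM and 4.41 to 5.22 against 6.16 to 6.38 CPM, almost all of it Trdc, and Zbtb16 has no row. Activated or memory markers summed higher in W250S (212 to 235 against 184 to 188 CPM), and Treg markers were higher in KO-labelled cells (23.4 to 27.3 against 18.9 to 20 CPM). The part of these lists in the lower genes was not tested, and in bulk RNA fewer cells of a type and less RNA per cell cannot be told apart.

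Stress and immediate early genes varied widely between naive libraries. Their sum was 3146, 2601 and 731.4 CPM in WT and 4441, 5615, 6897 and 795.4 CPM in KO-labelled libraries. In the W250S set it was 568.2, 2510 and 3158 CPM in WT and 2559, 3376 and 4779 CPM in W250S libraries. The groups overlapped in both sets, with higher values in most mutant libraries, and the part of these genes in the naive ratios was not tested. As the rule fixes, the 114 genes lay below the WT mean in each mutant library, with medians on the log2(CPM + 1) scale of -0.61, -0.61, -0.63 and -0.51 in KO-labelled and -0.51, -0.64 and -0.44 in W250S libraries.

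The genes were sorted by what their products do, a grouping made after their values were seen. Surface receptors and adhesion molecules numbered 12, among them Gpr34, Cd1d1, Tnfrsf13b (TACI, a receptor of the BAFF and APRIL ligands), the prostaglandin E2 receptor Ptger4 and the integrin ligand Icam1. Intracellular signalling had 9, including Mapk11 (p38 beta), the phosphoinositide kinase subunit Pik3cg and the guanine nucleotide exchange factor Vav3. Innate sensing, oxidase and cell death had 5: Ncf4, the DNA sensor Aim2, the necroptosis kinase Ripk3, Bid and Ern1. Lipid, sugar and organelle enzymes had 14, with Hsd17b11, the phosphatidylcholine carrier Pctp, the mucin-type glycosyltransferase Galnt12 and the lysosomal beta-mannosidase Manba. Actin and membrane traffic had 14, with Coro1b and Arpc1b of the actin machinery, the desmosomal plaque gene Pkp3 and the GTPase Rab20. Numbered zinc finger genes (Zfp symbols) were 11 of the 114 (9.65%), against 2.51% of the 9705 genes. Many genes of that family lie in clusters of near-identical copies, so reads may be split between them and their single values are uncertain.

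RefSeq places 111 of the 114 genes on GRCm38. Chromosome X holds 4 of them (3.60%, against 3.79% of the expressed genes). Elf4 lies at chrX:48411049-48463132, and the nearest of the 4 is Mbnl3, 2.70 Mb away. Chromosome 5 holds the most, 10 genes or 9.01%, against 6.69% of the expressed genes.

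In pathogenic Th17 cells many of the genes were lower in W250S than in WT. Of 104 genes tested with limma, 26 fell and 0 rose at an adjusted p under 0.05 (25.0%), where 1.17% of the 12780 tested genes fell and 0.9% rose. At an unadjusted p under 0.05, in either direction, there were 72 of the 104, and 19.3% of all genes. The log2 difference was negative for 101 of 104 (48.3% of all genes), and its median was -0.32, with 0.005 for all genes. Every W250S library was below every WT library for 69 of them, against 11.4% of all tested genes. The genes that fell made up 17.4% of all genes that fell in these cells.

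Of the called genes Hsd17b11 fell most, from 1.97, 1.97 and 2.55 CPM in WT to 0.396, 0.397 and 0.494 CPM in W250S libraries (log2 difference -1.14, SE 0.12, limma adjusted p = 0.00186). Pctp fell from 1.98, 1.61 and 1.75 to 0.478, 0.454 and 0.362 CPM (-0.96, SE 0.11, adjusted p = 0.00264). Ncf4 fell from 3.95, 4.09 and 3.54 to 1.73, 1.97 and 1.32 CPM (-0.87, SE 0.12, adjusted p = 0.00508). The groups did not overlap for any of the 3.

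Prr13 fell from 38.7, 41.2 and 37.2 CPM to 18.3, 26.1 and 22.8 CPM (-0.79, SE 0.11, adjusted p = 0.00554). Pkp3 fell from a mean of 12.5 to 6.53 CPM (-0.84, SE 0.09, adjusted p = 0.00212). Among the role groups, 6 of 14 actin and membrane traffic genes fell, such as Arpc1b (-0.49) and Coro1b (-0.50). Of 14 lipid, sugar and organelle enzymes 5 fell, and of 5 genes of innate sensing, oxidase and cell death 2 fell, Ncf4 and Ripk3 (-0.41). None of 11 zinc finger genes passed. Their median was -0.38, and for several of them the WT library numbered 3 was far above the other WT libraries. Zfp984, for example, was 7.20, 6.57 and 14.97 CPM in WT and 6.17, 5.16 and 5.69 CPM in W250S libraries. In the non-pathogenic culture the median of the 10 zinc finger genes tested was -0.03, and 0 passed. Of 11 receptors and adhesion molecules 1 fell, the NKG2D ligand gene Ulbp1 (-0.49).

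Cd1d1 was under the 1 CPM filter in Th17 cells. It was 0.936, 0.682 and 0.850 CPM in WT and 0.247, 0.383 and 0.231 CPM in W250S pathogenic Th17 libraries, and the 2 groups were apart. Fitted without the filter, its log2 difference was -0.50 (SE 0.08, adjusted p = 0.0239). In the non-pathogenic culture it was 0.668, 1.34 and 0.996 CPM in WT and 0.409, 0.497 and 0.402 CPM in W250S, and the same fit gave -0.46 (SE 0.12, adjusted p = 0.0527). Ksr2 and Epas1, both among the 20 lowest in naive cells, were also under the filter in both cultures.

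Non-pathogenic Th17 cells gave the same direction. Of 102 genes tested with limma, 31 fell and 0 rose (30.4%), where 2.94% of 12807 tested genes fell and 4.13% rose, and 52 of the 102 had an unadjusted p under 0.05 (26.5% of all genes). The median was -0.21, with 0.04 for all genes, and 82 of 102 were negative (41.4% of all genes). Scaled by median ratios, 42 fell and 2 rose, where 6.87% of all genes fell and 6.57% rose. Every W250S library was below every WT library for 48 of the 102, against 12.6% of all tested genes.

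Of the called genes Ncf4 fell most, from 4.80, 4.49 and 4.91 CPM to 1.49, 1.75 and 1.504 CPM (log2 difference -1.15, SE 0.10, limma adjusted p = 0.000225). Hsd17b11 fell from 2.00, 2.74 and 1.99 CPM to 0.769, 0.815 and 0.572 CPM (-0.91, SE 0.13, adjusted p = 0.0047). Prr13 fell from 41.2, 45.9 and 43.2 CPM to 22.2, 22.4 and 23.6 CPM (-0.90, SE 0.07, adjusted p = 0.000165). WT and W250S libraries were apart for each. Fam174b, which encodes a small membrane protein, fell by 0.84 and Pkp3 fell by 0.81 on the log2 scale.

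Of 13 lipid, sugar and organelle enzymes tested, 7 fell in this culture: Hsd17b11, Pctp, Galnt12, Fuca2, Nudt7, Manba and Aldh1b1. Of 5 genes of innate sensing, oxidase and cell death Ncf4 and Ripk3 fell here too. Tnfrsf13b fell here from 31.5, 42.0 and 36.6 to 22.5, 25.7 and 26.9 CPM (-0.53, SE 0.10, adjusted p = 0.0159). Its difference in the pathogenic culture was -0.39 with an adjusted p of 0.0536. Gpr34 was at 0.97 to 1.57 CPM in WT and 1.10 to 1.72 CPM in W250S libraries, which overlapped.

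In both cultures 20 genes fell, among them Ncf4, Hsd17b11, Pqlc3, Prr13, Pctp, Galnt12, Pkp3, Efhd2, Ulbp1, Manba, Ripk3 and Vav3. In either culture 37 fell. Of the 9705 genes from which the 114 were chosen, counting a gene that was not tested as not lower, 0.567% fell in both cultures and 4.03% in either. The W250S difference in the pathogenic culture minus that in the non-pathogenic one passed for 0 of 101 genes by limma, and for 0 of all 12642 genes (0%), and 10 of the 101 had an unadjusted p under 0.05 (9.45% of all genes). Of the 12 genes with ratios at most 0.5 in both naive sets, 6 of 11 tested fell in the pathogenic and 5 of 9 in the non-pathogenic culture. Interferon-stimulated genes outside the excluded families were lower too, 16 of 42 tested in the pathogenic and 8 of 39 in the non-pathogenic culture, and their part in these counts was not tested. None of the 114 is on that list.

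The counts depended on single libraries, for these genes as for all genes. Without the W250S library numbered 1, the W250S library numbered 3 or the WT library numbered 1, the pathogenic count was 10, 6 and 11. Of all genes 0.236%, 0.15% and 0.331% were lower in these fits. Without W250S library 1, W250S library 2 or WT library 3, the non-pathogenic count was 10, 6 and 6. Of all genes 0.338%, 0.244% and 0.205% were lower there. Without WT library 2 the non-pathogenic count was 28 lower and 4 higher, where 4.36% of all genes were lower and 12.2% higher. The median difference stayed between -0.341 and -0.28 in the pathogenic culture and between -0.238 and -0.143 in the non-pathogenic one.

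**Figure D2:**
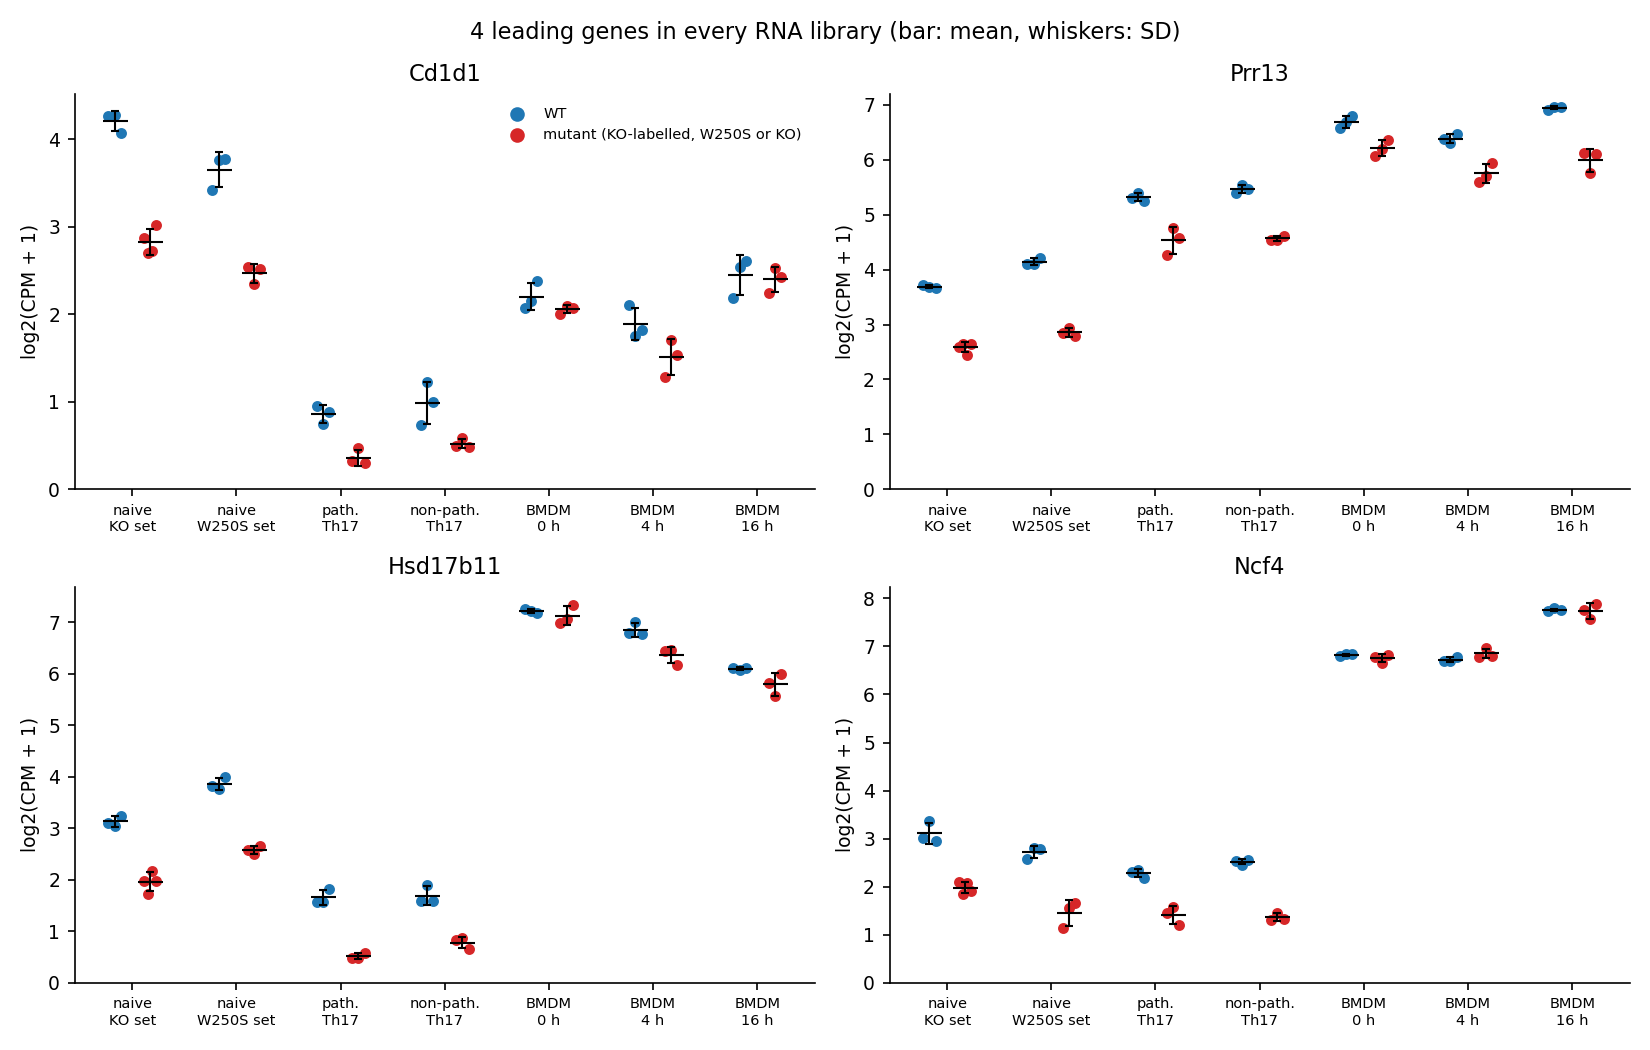
Levels of Cd1d1, Prr13, Hsd17b11 and Ncf4 in every RNA library on the log2(CPM + 1) scale, WT in blue and mutant in red, with the mean and SD of each group. The T cell and macrophage tables were normalized separately, so levels are to be read within a pair: Prr13 is apart in every pair, while Ncf4 is apart in the 4 T cell pairs and overlaps in all 3 macrophage pairs.

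In macrophages the same genes were followed at rest and after LPS, a bacterial wall component that triggers TLR4. The table lists 103 of the 114 and 99 passed the filter. At 0 h, 5 of 99 fell in KO and 0 rose by limma, where 0.299% of 12058 genes fell and 0.141% rose, and 31 of 99 had an unadjusted p under 0.05 (9.99% of all genes). Galnt12 fell from 12.2, 12.5 and 16.5 CPM to 4.98, 4.16 and 4.94 CPM (log2 difference -1.36, SE 0.18, limma adjusted p = 0.00256). The mitochondrial nucleotide kinase gene Ak3 fell from 53.1, 48.5 and 54.4 CPM to 29.2, 27.8 and 34.2 CPM (-0.76, SE 0.12, adjusted p = 0.00769). WT and KO libraries were apart for both.

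The other 3 that fell at 0 h were the fucosidase gene Fuca2 (-0.36), the actin regulator Coro1b (-0.36) and the nuclear receptor gene Esrra (-0.35). The median of the 99 was -0.20, with 0.001 for all genes, and 85 were negative (49.5% of all genes). These calls rested on the spread shared by all 18 macrophage libraries. With the 0 h libraries alone the filter kept fewer genes, so fewer than 99 were tested. Of these 0 passed, and of all 11498 genes tested there 1 did. Leaving out single 0 h libraries gave 2 to 9: 3 and 2 without KO 1 and 2, 9 without KO 3, and 2 without any 1 of the WT libraries. All were lower. Of all genes 0.316%, 0.125% and 0.574% were lower without KO 1, 2 or 3, and 0.125% to 0.141% without a WT library. With a pseudocount of 0.1, with median-ratio scaling and with the replicate number as a block, 3, 3 and 8 passed, all lower. Of all genes 0.191%, 0.217% and 0.498% were lower there.

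At 4 h of LPS 15 genes fell (1.81% of all genes did) and 2 rose (2.38% did), and the median was -0.13, with 0.04 for all genes. The prostaglandin receptor gene Ptger4 fell from 42.5, 50.8 and 49.3 CPM to 27.9, 17.4 and 27.8 CPM (-0.96, SE 0.17, adjusted p = 0.00482 by limma). Tnfrsf13b fell from 15.6, 15.6 and 19.5 CPM to 9.04, 8.63 and 11.3 CPM (-0.75, SE 0.12, adjusted p = 0.00271). Prr13 fell from 82.0, 78.2 and 87.6 CPM to 47.7, 51.4 and 60.8 CPM (-0.63, SE 0.11, adjusted p = 0.00325). None of these overlapped between WT and KO.

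Galnt12 (-0.98), Rab19 (-0.81), Dennd3 (-0.79), Ak3 (-0.73), Hsd17b11 (-0.49), Pqlc3 (-0.48) and Fuca2 (-0.33) fell as well at 4 h. The genes that rose were Sipa1l2 (0.47) and the syntrophin gene Sntb2 (0.49). With the 4 h libraries alone the filter kept fewer genes, and 7 passed, all lower. Of the 10723 genes tested there 1.17% were lower and 1.15% higher. Leaving out KO 1, 2 or 3 gave 14, 12 and 9 lower and 2, 1 and 0 higher. Of all genes 1.37%, 1.19% and 1.13% were lower and 2.56%, 1.3% and 1.68% higher. Leaving out WT 1, 2 or 3 gave 8, 10 and 7 lower and 0, 0 and 1 higher. Of all genes 0.905%, 0.921% and 0.772% were lower and 1.32%, 1.15% and 1.28% higher.

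At 16 h of LPS 40 of 99 fell and 1 rose, where 9.65% of all genes fell and 20.9% rose. The median was -0.24, with 0.12 for all genes. Median-ratio scaling lowered the median of all genes by 0.103, and with it 48 fell and 0 rose, where 14.1% of all genes fell and 12.6% rose. Klhl5, the gene that rose (0.27), no longer passed there (0.155, adjusted p = 0.115). At this time 40 of the 54 interferon-stimulated genes outside the excluded families were lower as well, and their part in the count was not tested.

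The mitochondrial aldehyde dehydrogenase gene Aldh1b1 fell from 40.2, 35.6 and 42.2 CPM to 15.8, 12.4 and 12.9 CPM (-1.46, SE 0.14, limma adjusted p = 4.74e-06). Prr13 fell from 119.7, 124.5 and 124.1 CPM to 68.4, 52.9 and 67.8 CPM (-0.96, SE 0.11, adjusted p = 1.94e-05). Pqlc3, a PQ-loop membrane protein gene, fell from 55.6, 56.9 and 56.7 CPM to 31.5, 29.9 and 28.6 CPM (-0.89, SE 0.09, adjusted p = 9.96e-06). Galnt12 fell by 1.26 and Zfp677 fell by 1.02 on the log2 scale.

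By role, 7 of 13 actin and membrane traffic genes, 7 of 14 enzymes, 4 of 8 signalling genes, 4 of 12 receptors and adhesion molecules, 3 of 10 zinc finger genes and 2 of 5 genes of innate sensing and cell death fell at 16 h. The last were Aim2 (-0.59) and Bid. Icam1 fell from 374.8, 337.8 and 340.3 CPM to 262.2, 274.3 and 243.2 CPM (-0.43, SE 0.09, adjusted p = 0.00291 by limma). Nfkbie, which encodes an inhibitor of NF-kappa-B, fell from 92.8, 87.4 and 96.9 CPM to 57.8, 58.8 and 63.5 CPM (-0.61, SE 0.13, adjusted p = 0.00255).

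Ncf4 and Cd1d1 did not pass at any macrophage time. Ncf4 was 110.6, 113.4 and 113.0 CPM in WT and 108.6, 99.9 and 111.7 CPM in KO at 0 h, and 212.5, 220.4 and 215.5 against 215.9, 188.3 and 235.6 CPM at 16 h. Its log2 differences were -0.07 (SE 0.08), 0.13 (SE 0.08) and -0.03 (SE 0.08) at 0, 4 and 16 h. Cd1d1 was at 3.21 to 4.20 CPM in WT and 3.02 to 3.27 CPM in KO at 0 h, with a log2 difference of -0.15 (SE 0.16). At 4 h it was 3.29, 2.36 and 2.53 CPM in WT and 1.44, 2.25 and 1.91 CPM in KO, which did not overlap (-0.38, SE 0.16, limma adjusted p = 0.203), and at 16 h 3.55, 4.82 and 5.11 against 3.75, 4.79 and 4.35 CPM, which did (-0.05, SE 0.16). Gpr34 was 2.73 to 3.82 CPM in WT and 3.21 to 10.6 CPM in KO at 0 h, so the high KO value came from 1 library.

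The KO difference at 16 h minus that at 0 h passed for 4 of 99 genes, all more negative at 16 h, where 2.83% of all genes were lower and 3.62% higher by this test. They were Aldh1b1 (-1.12, limma adjusted p = 0.00477), Epb41l1 (-0.56, adjusted p = 0.0375), Pqlc3 (-0.50, adjusted p = 0.0299) and Aim2 (-0.45, adjusted p = 0.0299). Leaving out single libraries gave 1 to 8 calls. Without KO 1, 2 or 3 the count was 8, 7 and 1 at 0 h, and 8, 1 and 5 at 16 h. Without any 1 WT library at 0 h it was 2, and without WT 1, 2 or 3 at 16 h it was 2, 2 and 1. In these fits 1.37% to 3.69% of all genes were lower and 0.972% to 4.89% higher. At 4 h minus 0 h, 0 of 99 passed by limma (12 at an unadjusted p under 0.05, with 7.25% of all genes), where 1 of all 12058 genes did (0.00829%).

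Across all macrophage times 45 of the 114 fell at 1 time or more, and 3 fell at all 3: Galnt12, Fuca2 and Ak3. Both in a Th17 culture and at a macrophage time 19 fell, among them Hsd17b11, Pqlc3, Prr13, Galnt12, Coro1b, Manba, Vav3 and Trim35. In a Th17 culture but at no macrophage time 18 fell, among them Ncf4, Pctp, Ripk3 and Arpc1b, which were tested in macrophages. Others of the 18 had no macrophage test: Pkp3, Fam174b and several numbered models. Whether the 18 differ between the cell types was not tested, since mutant alleles and tables differ. None of the 5 comparisons called 51 of the 114 lower, of which some were not tested in 1 or more of them. Of the 9705 genes, counted the same way, 8.38% fell at 1 macrophage time or more, 0.155% at all 3, 1.22% in a Th17 culture and at a macrophage time, 2.81% in a Th17 culture but at no macrophage time, and 88.8% in none.

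**Figure D3:**
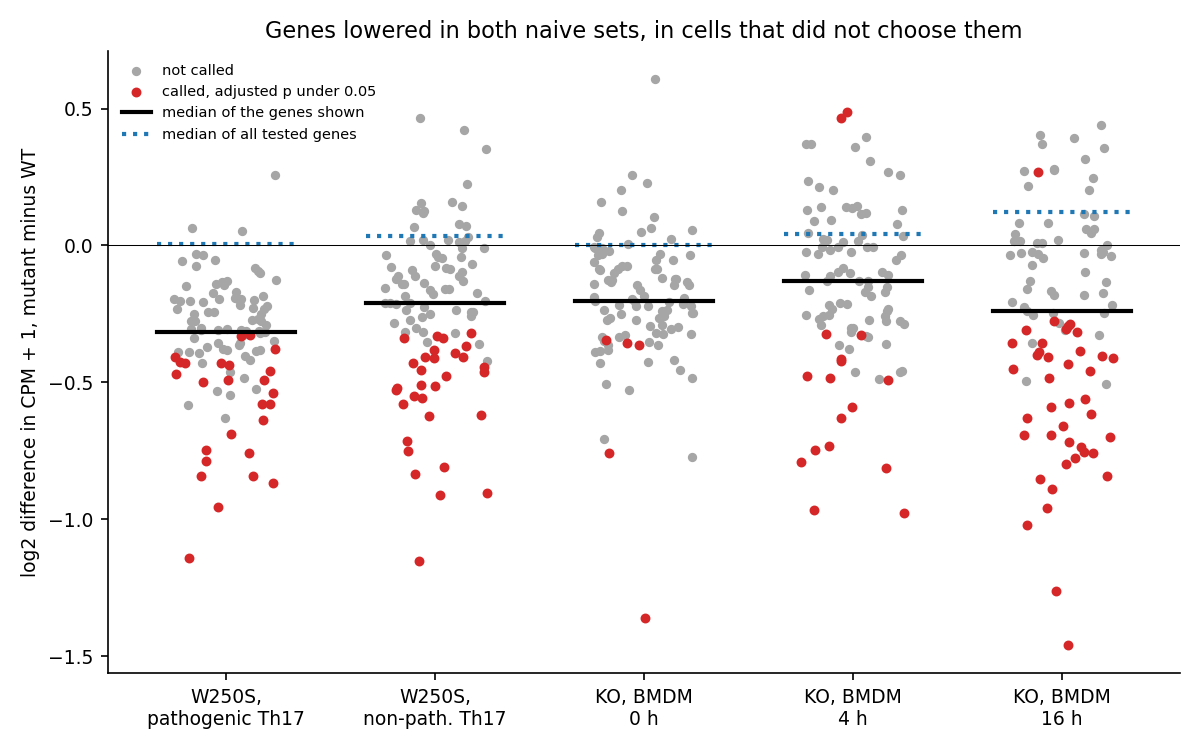
Log2 difference (mutant minus WT, on CPM + 1) of each of the 114 genes that was tested in the 2 Th17 cultures and the 3 macrophage times, with genes past an adjusted p of 0.05 in red, the median of the genes shown in black and the median of all tested genes dotted in blue. The black bars lie at -0.32, -0.21, -0.20, -0.13 and -0.24, each below the dotted line.

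**Figure D4:**
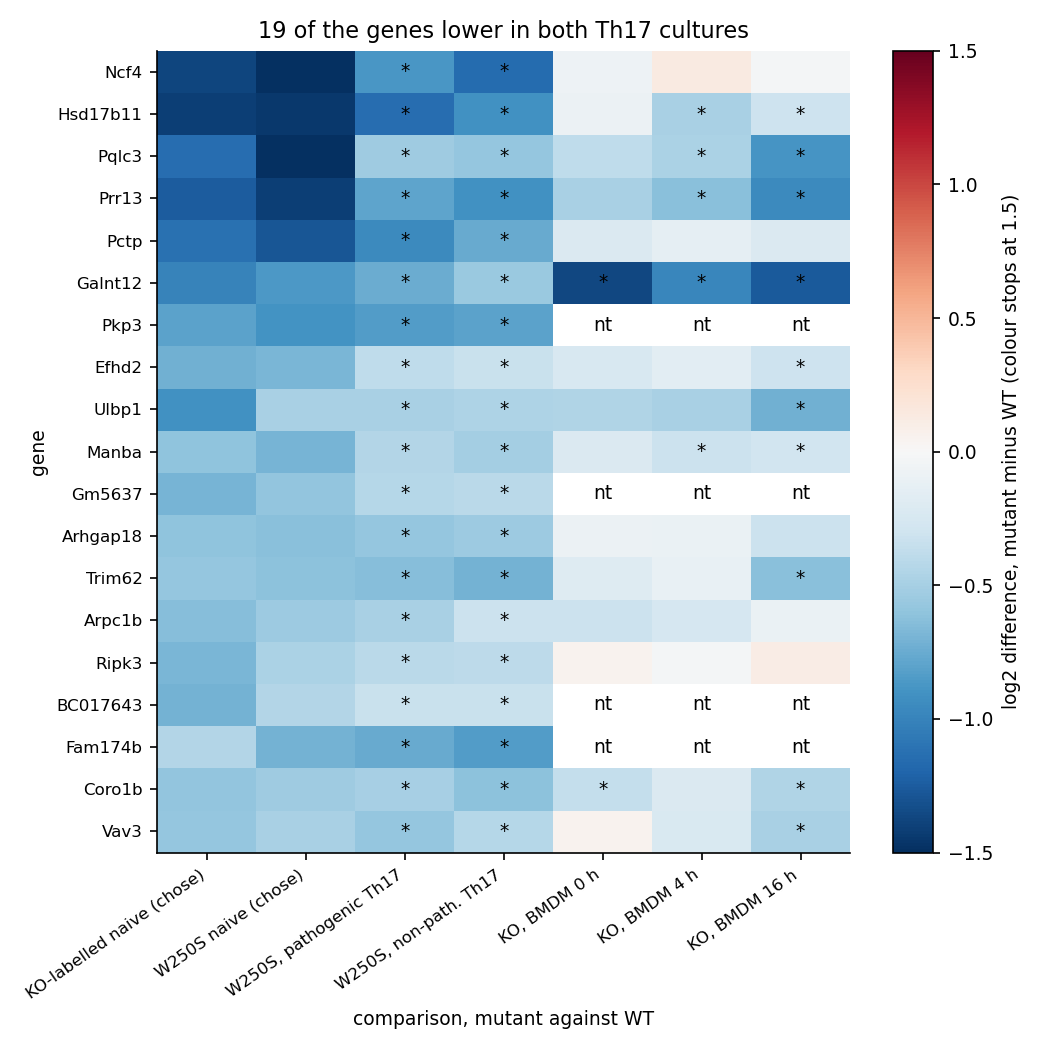
Rows are 19 of the genes that fell in both Th17 cultures, with their log2 difference in each comparison (columns) in colour, a star where the test passed and nt where not tested; the first 2 columns chose the genes and carry no test. Galnt12 is starred in all 5 tested columns, while Ncf4, Pctp, Arhgap18, Arpc1b and Ripk3 were tested in macrophages and are starred in the Th17 columns alone.

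LPS itself moved most of these genes in WT macrophages, as it did most other genes. At 4 h against 0 h 74 of 99 fell and 15 rose, where 71.3% of all 12058 genes fell and 15.6% rose. At 16 h 49 fell and 23 rose, where 56.5% fell and 18.3% rose. Median-ratio scaling raised the median of all genes by 0.794 at 4 h and 0.417 at 16 h. It gave 45 lower and 31 higher at 4 h (37.2% and 35.8% of all genes), and 33 lower and 37 higher at 16 h (33.8% and 33.8%), so for genes near the bulk the direction depends on the scaling.

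Icam1 rose from 51.5, 64.9 and 61.9 CPM at 0 h to 2299, 2360 and 2308 CPM at 4 h (log2 difference 5.27, SE 0.09, limma adjusted p = 8.49e-18). Nfkbie rose by 3.81, Aldh1b1 by 3.70 and the mitochondrial glycerol-3-phosphate dehydrogenase gene Gpd2 by 2.58. At the other end, Tcf19 fell by 3.80, Tor4a fell by 3.07 and Snx33 fell by 2.80. Icam1, Nfkbie and Aldh1b1 are thus genes that LPS raised in WT and that were lower in KO at 16 h, and Galnt12 is one that LPS lowered in WT (-2.42) and that was lower in KO at every time.

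In ATAC-seq of naive cells, 112 peaks at the transcription start sites (TSS) of 93 of the 114 genes were tested. By edgeR 1 of these was called lower in KO-labelled libraries and 0 higher, and of all 16439 TSS peaks tested 0.00608% were called lower and 0.0182% higher. At an unadjusted p under 0.05, 30 of the 112 were lower (26.8%) and 3 higher, where 4.05% of all TSS peaks were lower and 9.46% higher. The log2 difference was negative for 88 of 112 (78.6%, against 50.9% of all TSS peaks), with a median of -0.137 against -0.0038. The KO-labelled libraries were deeper, with 9.61M to 13.7M reads in peaks against 6.19M to 9.71M in WT, and the part of depth was not tested.

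The called peak was that of Tor4a, a torsin family ATPase gene, at chr2:25195314-25196892 (mm10). It held 54.2, 56.9 and 54.3 CPM in WT and 37.0, 36.6 and 35.5 CPM in KO-labelled libraries (log2 difference -0.60, SE 0.08, edgeR quasi-likelihood adjusted p = 0.0486). Tor4a RNA had naive ratios of 0.628 and 0.686 and fell in non-pathogenic Th17 cells (-0.41, limma adjusted p = 0.0157). The call rested on all 6 libraries. It was absent with the replicate block and without KO 1, KO 2, KO 3, WT 2 or WT 3, each of which gave 0 peaks. Without WT 1 the count was 12, of which 7 were lower and 5 higher, where 0.375% of all peaks were lower and 3.76% higher.

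None of the peaks described next passed the test. The Hsd17b11 peak (chr5:104021437-104022144) held 10.5, 11.8 and 10.9 CPM in WT and 6.55, 6.82 and 6.80 CPM in KO-labelled libraries (log2 difference -0.72, SE 0.17, edgeR adjusted p = 0.287). The Ncf4 peak (chr15:78244800-78245140) held 3.51, 2.79 and 4.32 CPM against 1.67, 2.02 and 0.972 CPM, from 13 to 43 reads per library (-1.23, SE 0.33, adjusted p = 0.314). The Pqlc3 peak (chr12:16999481-17000608) held 51.2, 55.7 and 51.7 CPM against 40.0, 45.2 and 39.3 CPM (-0.35, SE 0.09, adjusted p = 0.298). In each of the 3 all KO-labelled values lay under all WT values.

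The Cd1d1 peak (chr3:86998768-86999888) held 48.3, 60.0 and 55.3 CPM in WT and 50.1, 46.5 and 45.3 CPM in KO-labelled libraries, which overlapped (-0.21, SE 0.09, edgeR adjusted p = 0.49). The Prr13 peak (chr15:102458136-102459347) overlapped as well, at 38.1, 50.6 and 44.4 against 40.1, 43.9 and 39.7 CPM (-0.11, SE 0.10, adjusted p = 0.774). Prr13 thus combined RNA ratios of 0.420 and 0.375 with a peak whose unadjusted p was 0.308.

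**Figure D5:**
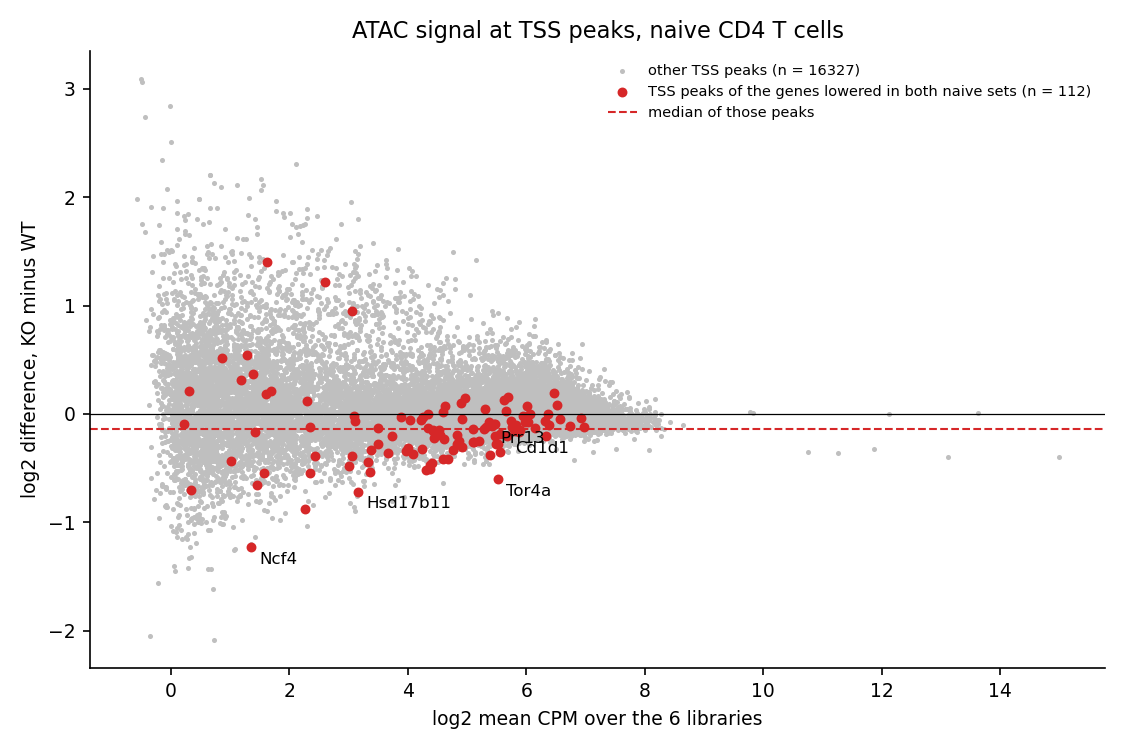
Each point is a TSS peak in naive CD4 T cells, placed by its mean level over the 6 ATAC libraries (log2 CPM) and its log2 difference, KO-labelled minus WT. Red points are the 112 peaks of the genes lowered in both naive sets, and the dashed line is their median of -0.137; Ncf4, Hsd17b11 and Tor4a lie at -1.23, -0.72 and -0.60.

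The promoters of Hsd17b11, Tor4a and Pqlc3 are shown here because their TSS peaks did not overlap between the groups and their RNA was followed above. Each is the 250 bases before a RefSeq start on GRCm38, read 5′ to 3′ on the gene's strand. The ETS core GGAA, or TTCC where the core is on the other strand, is in capitals. Hsd17b11 (chr5:104021797-104022046, minus strand) has 6 cores, Tor4a (chr2:25196814-25197063, minus strand) has 5 and Pqlc3 (chr12:17000119-17000368, minus strand) has 3. The called Tor4a peak ends inside the Tor4a window. Of the Tor4a cores only that nearest the start lies within the peak. For Pqlc3 the start used is an inner one. Its window lies within the RefSeq gene span, chr12:16988648-17000386, and not upstream of the gene.
Hsd17b11: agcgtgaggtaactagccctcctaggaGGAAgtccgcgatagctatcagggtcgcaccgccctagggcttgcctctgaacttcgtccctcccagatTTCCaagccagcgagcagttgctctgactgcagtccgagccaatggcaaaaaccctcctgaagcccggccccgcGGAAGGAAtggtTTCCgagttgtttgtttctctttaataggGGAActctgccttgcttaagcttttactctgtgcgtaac
Tor4a: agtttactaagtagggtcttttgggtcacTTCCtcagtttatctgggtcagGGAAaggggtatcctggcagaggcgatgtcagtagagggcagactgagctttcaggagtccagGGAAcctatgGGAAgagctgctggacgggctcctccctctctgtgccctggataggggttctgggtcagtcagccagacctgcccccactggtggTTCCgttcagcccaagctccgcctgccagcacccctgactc
Pqlc3: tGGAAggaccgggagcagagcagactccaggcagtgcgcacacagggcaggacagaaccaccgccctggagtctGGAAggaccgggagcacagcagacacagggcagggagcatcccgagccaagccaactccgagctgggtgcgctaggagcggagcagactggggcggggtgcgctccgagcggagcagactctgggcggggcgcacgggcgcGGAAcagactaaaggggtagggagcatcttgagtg

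RefSeq promoter windows, from 250 bases before to 50 after the start, matched 83 of the 114 genes. The core GGAA, on either strand, was in 98.8% of these, in 96.7% of the 6449 expressed genes with a window and in 96.0% of all 32851 windows. The longer CCGGAA was in 38.6% against 37.0% of expressed genes, and CCGGAAGT, which contains it, in 8.43% against 11.4%. CCCGGAAGT, which contains both, was in 5 of the 83 (6.02%), against 3.78% of expressed genes. These shares are a description of the letters in the windows.

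The 5 were Ak3, Eif5a2, Faap24, Inafm2 and Rab11fip2, and 3 of them carry the 9 letters before the start used. They are printed to show where a full ETS consensus does occur, with the match in capitals.
Eif5a2: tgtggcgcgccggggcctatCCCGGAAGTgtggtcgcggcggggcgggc
Faap24: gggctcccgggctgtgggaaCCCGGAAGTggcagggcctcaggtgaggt
Inafm2: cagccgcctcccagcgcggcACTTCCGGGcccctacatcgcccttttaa
The match lies 37 to 29 bases before the start used in Eif5a2 (chr3:28781220-28781268, plus strand). That start is an inner one, and the match lies within the RefSeq gene span, chr3:28781032-28798846. In Faap24 (chr7:35396784-35396832, minus strand) the match lies 45 to 37 bases before the start. In Inafm2 (chr2:118745642-118745690, plus strand) it lies 96 to 88 bases before the start, on the other strand. Inafm2 was among the 20 lowest in naive cells. Inafm2 and Rab11fip2 passed in none of the 5 Th17 and macrophage comparisons. Ak3 was lower in pathogenic Th17 cells and at all 3 macrophage times, Eif5a2 at 4 h and Faap24 at 16 h. Whether the 9 letters have a part in these calls was not tested.

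The other genes of the pathways around Cd1d1, Ncf4 and Hsd17b11 were followed by list. In naive cells the values are means, given without a test or a spread, and genes of these lists moved both ways. The proteases Ctsl and Lgmn were higher in mutants. Ctsl was at 2.88 against 1.71 and 3.92 against 2.28 CPM, and Lgmn at 2.90 against 2.01 and 4.84 against 3.45 CPM. Ctss, of the CD1d list, was lower, with ratios of 0.7521 in the KO-labelled and 0.6907 in the W250S set. Plin2, a lipid droplet coat gene, was at 3.40 against 2.00 and 6.81 against 4.51 CPM. Of 14 genes of lipid antigen presentation by CD1d, 12 were tested in each Th17 culture, and 1 fell in each, the cathepsin gene Ctss (-0.96 and -0.47). Of 8 phagocyte oxidase genes 5 were tested; 1 fell in the pathogenic and 2 in the non-pathogenic culture, Ncf4 in both and the membrane subunit gene Cyba (-0.60) in the second, with medians of -0.27 and -0.47. Of 14 lipid droplet and steroid dehydrogenase genes 12 were tested, and 1 and 3 fell, Hsd17b11 in both and Plin3 (-0.57) and Hsd17b10 (-0.27) in the second, with medians of 0.004 and -0.03.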

How the data were processed

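RNA values are CPM that the authors deposited as gene tables: 1 for the macrophages and 1 for each T cell set. Per the submitters' processing notes, Partek 10.0.21.0411, BWA, Bowtie2, MACS2, DESeq2 and mm10 were used in the series; which step made which table is not given in the sources used here. Columns sum to 0.472M to 0.543M in the T cell tables and 0.951M to 0.954M in the macrophage table. ATAC values are expected counts, estimated reads per peak over 1 peak set annotated by the authors, rounded here. RNA depth is not in the files; ATAC libraries hold 6.19M to 13.7M reads in peaks. Low CPM values came out as whole reads (within 0.1) for 90.9% to 96.1%, too few to recover reads, so no count test was run on RNA. Names turned into dates (19 or 20 per T cell table) were dropped.

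RNA was tested with limma 3.58.1 (R 4.3.3) on log2(CPM + 1), trend on, keeping genes with at least 1 CPM in 3 libraries. Fold changes of low genes are understated on this scale. The 18 macrophage libraries were fitted together, each Th17 table alone, and the contrast between cultures over all 4 groups without pairing, because the columns carry no source number (the paired difference that had been planned was not possible). ATAC peaks were tested with edgeR 4.0.16 quasi-likelihood (TMM). P-values were adjusted by Benjamini-Hochberg over all features; 0.05 was the threshold. Fits were tested on simulated data. Alternatives were scaling, pseudocount, filter, blocks, single groups, left-out libraries and DESeq2 1.42.0 for ATAC. Members, lists and tests were chosen with earlier results of these data known. Named were 4 leading genes, the 20 lowest in naive cells, 3 on each side of the threshold, up to 5 called each way per comparison and members of the lists, without numbered models; others named in role groups and overlaps, and the other genes of the 3 pathway lists, were chosen after their values were seen. Values of some genes are not reported here.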

Additional observations from a re-analysis of the deposited data

Results flagged for a closer look

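Among the 46 named genes, 3 had 1 KO-labelled naive library far from the other 3, measured as the gap to the nearest library over the group's range and past Dixon's 95% limit for 4 samples. Zfp995 had a share of 0.958, with 1.15 CPM in 1 library and 2.07 to 2.11 CPM in the others. Ksr2 had 0.922, with 1.59 CPM against 2.83 to 2.93 CPM, in the same library, KO 3. Pqlc3 had 0.86, with 4.55 CPM in KO 4 against 3.61 to 3.74 CPM. The limit is used here as a flag, not as a test. It flags about 1 in 20 independent groups by chance. The 46 genes share the same 4 libraries, so 3 of 46 was not weighed against that rate.

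The KO difference in macrophages was not the same at 16 h of LPS as at 0 h for 4 of the named genes, by limma's test of the difference. The change was -1.12 for Aldh1b1, -0.558 for Epb41l1, -0.503 for Pqlc3 and -0.452 for Aim2. Genes called in a comparison were named by rule, so called genes were bound to be among the named. The 4 were 4.04% of the 99 tested, where 2.83% of all genes were lower and 3.62% higher. Leaving out single libraries gave 1 to 8 calls. Epb41l1 was 61.6, 64.2 and 71.0 CPM in KO and 51.9, 55.0 and 64.3 CPM in WT at 0 h, and 69.4, 55.5 and 67.3 CPM against 74.2, 83.0 and 89.4 CPM at 16 h. Aim2, the DNA sensor, overlapped between KO and WT at 0 h and was 22.5 to 25.9 CPM in KO against 35.2 to 38.9 CPM in WT at 16 h.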

How the results depend on the processing

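The rule gave 61 genes at a ratio of 0.7, 209 at 0.8, 196 with a WT mean of at least 1 CPM and 45 with at least 10 CPM, where the main rule gave 114; leaving out single naive libraries gave 95 to 130. Leaving out single libraries gave 6 to 29 calls in pathogenic Th17 (42 to 372 of all genes) and 6 to 36 in non-pathogenic Th17 (54 to 2110). In macrophages it gave 2 to 9, 8 to 16 and 34 to 41 at 0, 4 and 16 h. Of all genes 18 to 95, 247 to 473 and 2515 to 3501 passed there. It gave 1 to 8 for the 16 h minus 0 h difference (282 to 1031 of all genes) and 0 to 12 TSS peaks (0 to 2070 of all peaks). Fewer samples are tested in each. At 0 h, a pseudocount of 0.1 and median-ratio scaling gave 3 calls each, the replicate block 8 and the 0 h libraries alone 0; at 4 h alone it was 7. The replicate block gave 0 TSS peaks. Same-numbered libraries share only a number (correlations of deviations -0.197 to 0.123 in macrophages and -0.103 to 0.0273 in ATAC). The block gave 42 calls at 16 h, 40 lower and 2 higher, where 10.5% of all genes were lower and 23% higher. At 4 h it gave 19 calls, 16 lower and 3 higher, where 2.16% of all genes were lower and 3.1% higher. No paired analysis was possible for the Th17 cultures because their columns carry no source number.

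For single genes, 1817 of 2095 repeated values kept direction and side, 258 kept direction but no longer passed, 2 passed newly and 18 turned sign. Of these, 4 were uncalled at 16 h in macrophages: Cd1d1 ran from -0.175 to 0.0369 over the left-out libraries (0.0308, 0.00146 and 0.0369 without KO 1, WT 2 or WT 3), and Ncf4 from -0.0996 to 0.0612 (the last without KO 2). The other 14 turned with median-ratio scaling in WT macrophages under LPS. At 4 h against 0 h these were Prr13 (0.59), Hsd17b11 (0.545), Trim35 (0.337), Coro1b (0.60), Klhl5 (0.00149), Zbtb8a (0.215), Pdlim5 (0.437), Arpc1b (0.0735), Efhd2 (0.234) and Dok1 (0.26). At 16 h they were Pqlc3 (0.0669), Trim35 (0.0915), Arpc1b (0.166) and Pik3cg (0.0381). Count tests on recovered reads and the peak nearest each start within 1000 bases were not run; all peaks of the genes, chosen after seeing the data, gave 1 call. RNA depth is not given, so what it limits for the low genes was not tested; the Ncf4 TSS peak rests on 13 to 43 reads per library.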
